A study of Mus musculus with 38 samples.

Results

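The comparison described here is that of c-Fos ChIP-seq peaks in depolarised mouse cortical neurons infected with c-Fos shRNA and in sister cultures infected with control shRNA. It takes in 4 of the 38 libraries of the series: 1 library of each kind from biological sample 5 and from biological sample 6, chosen by their labels and compared within each biological sample. The neurons were taken from C57BL/6 cortices at embryonic day 16.5 and had spent 7 days in vitro. All 4 cultures, controls included, were silenced overnight with 1 µM TTX, a sodium channel blocker, and 100 µM DL-AP5, an NMDA receptor blocker, and were then given KCl for 2 h. Both kinds of culture carried an shRNA, so that the control differs from the uninfected cultures of biological samples 3 and 4 by infection, and all 4 libraries were made with the c-Fos antibody sc52. The sequence of the shRNAs and the amount of c-Fos protein left were not analysed here. Each library gave 1 list of peaks, and the number of sequenced reads behind a list is unknown. A difference in list length therefore includes any difference in depth, and the part of depth was not tested.

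c-Fos is an immediate early gene product that forms dimers with Jun proteins, and these AP-1 dimers bind DNA at enhancers and promoters. In neurons, membrane depolarisation by KCl lets calcium in and switches on transcription of Fos and of other early genes. An shRNA lowers the protein of its target gene by directing its mRNA to degradation, so that ChIP with and without it compares the peaks of an antibody at different levels of its target. Acetylation of histone H3 at lysine 27 (H3K27ac) marks active promoters and enhancers, and the acetyltransferase CBP together with H3K4me1 marks enhancers.

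Far fewer c-Fos peaks were listed with c-Fos shRNA than with control shRNA in both biological samples. In biological sample 5 the control list held 23578 peaks and the c-Fos shRNA list 7808, which is 66.9% fewer. In biological sample 6 the control list held 19131 peaks and the c-Fos shRNA list 1793, which is 90.6% fewer. Every c-Fos shRNA list was shorter than both control lists. On the log2 scale the mean peak number differed by -2.50 (c-Fos shRNA minus control), with an SD of 1.29 between the 2 paired differences. The exact two-sided permutation test of the 4 library labels gave p = 0.33, which is the smallest value that 2 libraries against 2 allow, and 0.42 after Benjamini-Hochberg adjustment over the 5 tests made. With this design no exact test can pass a threshold of 0.05, and a paired exact test of 2 biological samples cannot go below p = 0.5. Whether biological samples 5 and 6 came from separate dissections is not given in the labels, so the p-values measure only the spread between these libraries, which may be technical.

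The difference lay in the peaks outside non-distal H3K27ac, while the number of peaks at non-distal H3K27ac was nearly the same. c-Fos peaks were placed by the authors' H3K27ac peaks of KCl-treated neurons, which came from biological samples 1 and 2, without shRNA. The genome-wide H3K27ac list was divided into the 18556 peaks that the authors also listed as distal and the 10862 that they did not, called non-distal here. Inside non-distal H3K27ac peaks, biological sample 5 had 5474 c-Fos peaks with control shRNA and 5099 with c-Fos shRNA, and biological sample 6 had 1525 and 1380. These numbers were 6.85% and 9.51% lower, whereas the 2 controls differed from each other far more than either differed from its c-Fos shRNA partner. The difference in mean log2 number was -0.12 (exact permutation p = 0.67).

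Inside distal H3K27ac peaks, the numbers were 4411 with control and 1288 with c-Fos shRNA in biological sample 5, and 3733 and 166 in biological sample 6. The c-Fos shRNA lists thus held 3.42-fold and 22.5-fold fewer distal peaks, a difference in mean log2 number of -3.13 (exact permutation p = 0.33). Outside all H3K27ac peaks, 13693 control peaks stood against 1421 in biological sample 5, and 13873 against 247 in biological sample 6. These were 9.64-fold and 56.2-fold fewer, with a difference in mean log2 number of -4.54 (exact permutation p = 0.33). In distal H3K27ac peaks and outside H3K27ac peaks the 2 control libraries lay close together and both c-Fos shRNA libraries lay below them.

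**Figure D1:**
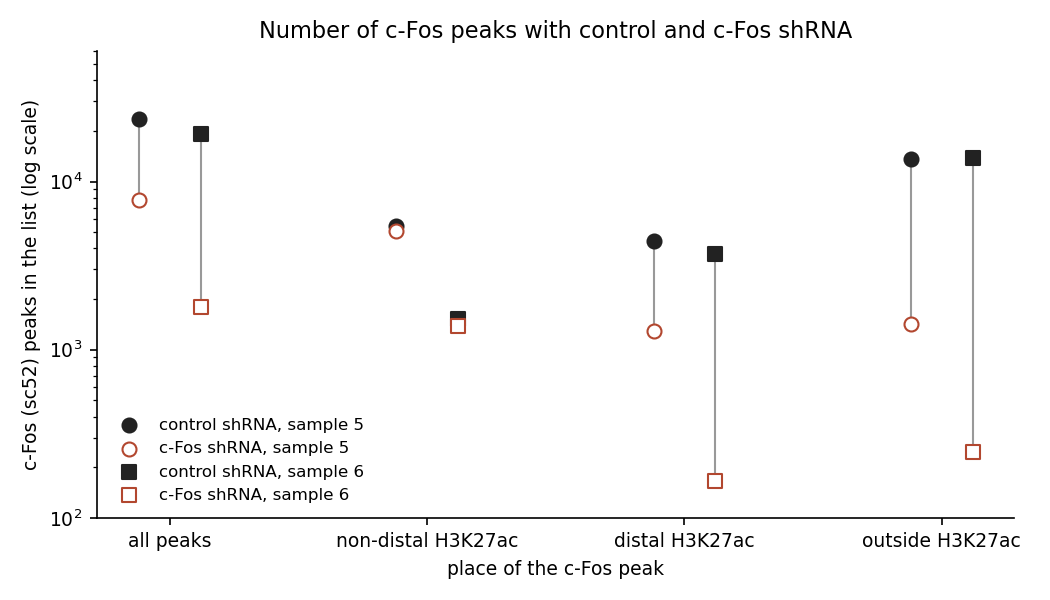
Number of c-Fos peaks (sc52 antibody, log axis) in the 4 lists, for all peaks and by H3K27ac place; filled symbols are control shRNA, open symbols c-Fos shRNA, circles biological sample 5, squares biological sample 6, and a line joins the libraries of 1 biological sample. The lines are short inside non-distal H3K27ac peaks (5474 and 5099; 1525 and 1380) and longest outside H3K27ac peaks (13693 and 1421; 13873 and 247).

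The makeup of the lists differed accordingly. Non-distal peaks were 23.2% of the control list of biological sample 5 and 65.3% of its c-Fos shRNA list, and 7.97% and 77.0% in biological sample 6. Peaks outside H3K27ac made up 58.1% and 72.5% of the control lists and 18.2% and 13.8% of the c-Fos shRNA lists. Seen from the H3K27ac peaks, 45.6% of the 10862 non-distal ones held a c-Fos peak with control shRNA and 44.2% with c-Fos shRNA in biological sample 5. The same shares were 13.2% and 12.5% in biological sample 6. Of the 18556 distal H3K27ac peaks, 22.2% held a c-Fos peak with control and 6.74% with c-Fos shRNA in biological sample 5, and 19.0% and 0.884% in biological sample 6.

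Single peaks were then followed. A control peak was called kept when a c-Fos shRNA peak of the same biological sample overlapped it by at least 1 bp, and lost otherwise. In biological sample 5, 5309 of 23578 control peaks were kept, which is 22.5%. In biological sample 6, 1043 of 19131 were kept, which is 5.45%. As a measure of how often 2 lists differ without c-Fos shRNA, 52.3% of the control peaks of biological sample 5 were found in the control list of biological sample 6, and 64.6% in the other direction. In the reverse view, 67.6% of the c-Fos shRNA peaks of biological sample 5 and 57.8% of those of biological sample 6 overlapped a control peak of their own biological sample.

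By place, the kept share of control peaks inside non-distal H3K27ac was 64.9% in biological sample 5 against 49.6% in biological sample 6, a mean of 57.3% ± 10.8 (SD, n = 2). Inside distal H3K27ac peaks it was 21.2% and 3.11%, a mean of 12.2% ± 12.8 (SD, n = 2). Outside H3K27ac it was 5.99% and 1.23%, a mean of 3.61% ± 3.37 (SD, n = 2). The order of the 3 places was the same in both biological samples. Between the controls the order depended on the direction: of the control peaks of biological sample 5, 25.9% of the non-distal, 64.1% of the distal and 59.0% of the outside ones recurred in the control of biological sample 6. In the other direction these shares were 93.2%, 75.9% and 58.4%, which is the order of the kept shares. Non-distal peaks accordingly formed 66.9% of the kept and 10.5% of the lost peaks in biological sample 5, and 72.6% and 4.25% in biological sample 6. The control list was also shortened to its best-scoring peaks, as many as the c-Fos shRNA list held. Of all these control peaks, 39.2% and 24.7% were kept. By place, the shares were 85.8% and 90.4% of the non-distal, 31.9% and 8.91% of the distal and 14.0% and 8.35% of the outside ones. In biological sample 6 the distal and outside shares thus lay close together.

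Kept peaks ranked higher in the control list than lost peaks. The authors' score of a peak rises with the strength of its p-value and was used only to order peaks within a list. In biological sample 5 the median score was 141 for kept and 79.6 for lost peaks, and the medians of biological sample 6 were 195 and 84.6. Over all places, kept peaks were also wider, with medians of 1036 and 799 bp in biological sample 5 and of 843 and 783 bp in biological sample 6. By place this held except at non-distal H3K27ac in biological sample 6, where the medians were 814 bp for kept and 817 bp for lost peaks. When the control list was divided into deciles by score, 62.8% of the best and 9.20% of the worst decile were kept in biological sample 5, and 23.8% and 1.67% in biological sample 6.

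Rank alone did not separate kept from lost peaks, since peaks of like rank were kept to very different degrees in the 3 places. In the best decile of biological sample 5, 96.3% of the non-distal, 50.8% of the distal and 31.8% of the outside peaks were kept. In the best decile of biological sample 6 these shares were 88.9%, 9.09% and 7.76%. Even in the worst decile, 38.5% of the non-distal peaks of biological sample 5 and 19.8% of those of biological sample 6 were kept, more than of the peaks outside H3K27ac in the best decile. Among the 100 best control peaks, all non-distal ones were kept: 86 of 86 in biological sample 5 and 73 of 73 in biological sample 6. Outside H3K27ac, 10 of 10 and 10 of 18 of these best peaks were kept. Among the 1000 best peaks of biological sample 5, 538 of 543 non-distal, 144 of 214 distal and 137 of 243 outside peaks were kept. The same numbers in biological sample 6 were 243 of 258, 34 of 296 and 58 of 446.

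**Figure D2:**
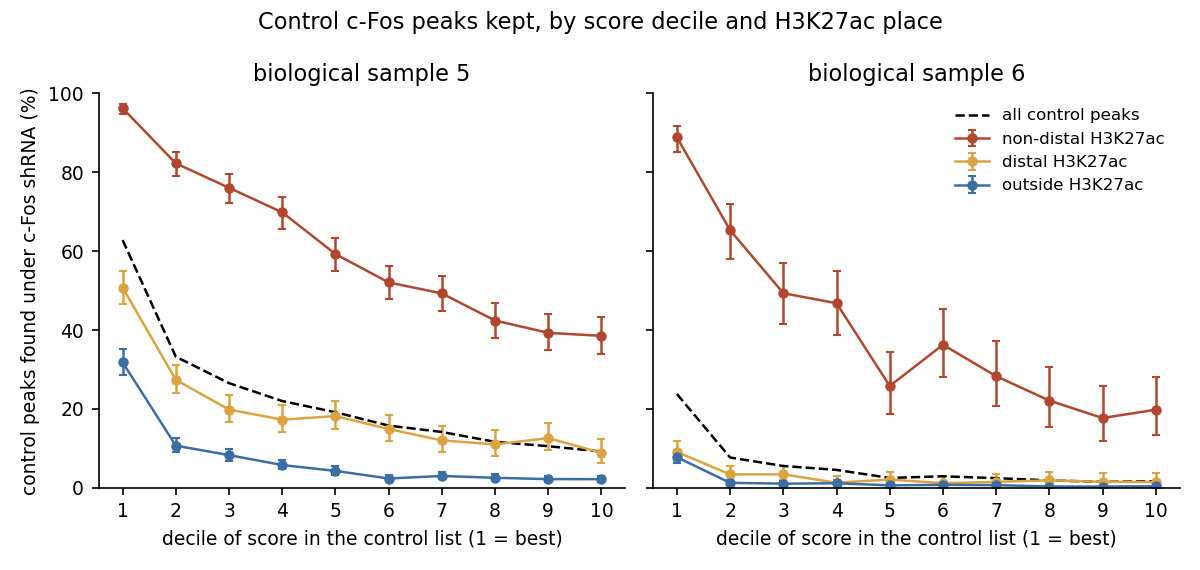
Share of control c-Fos peaks found under c-Fos shRNA (vertical axis, %) in each decile of the control list by score (1 is best), by H3K27ac place, for biological samples 5 and 6; bars are Wilson 95% intervals, which cover counting error only. The non-distal line lies above the others in every decile, from 96.3% to 38.5% in biological sample 5 and starting at 88.9% in biological sample 6.

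Control peaks that the same antibody also listed in silenced neurons were mostly kept. The unstimulated sc52 lists of biological samples 3 and 4, which were not infected, hold 3669 and 1891 peaks. Control peaks found in neither list were kept in 13.7% of cases in biological sample 5 and 0.652% in biological sample 6. Control peaks found in both lists were kept in 97.7% and 86.9%. Those found in 1 of the 2 lists lay between, at 80.4% and 27.3%. The peaks in neither list are 20839 of 23578 and 17778 of 19131. Of the kept peaks, 46.1% (2450 of 5309) in biological sample 5 and 88.9% (927 of 1043) in biological sample 6 were in at least 1 of the 2 lists, so that 2859 kept peaks of biological sample 5 were in neither.

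This order held within each place. Non-distal control peaks that were in neither unstimulated list were kept in 47.3% of cases in biological sample 5 and in 6.30% in biological sample 6, a mean of 26.8% against 57.3% for all non-distal peaks. Distal control peaks in neither list were kept in 16.9% and 0.953% of cases, and those in both lists in 97.0% and 85.9%. Outside H3K27ac the shares were 4.12% and 0.288% for peaks in neither list and 85.1% and 58.5% for peaks in both. Rank still ordered the peaks that were in neither list: in biological sample 5 their kept share went from 36.6% in the best decile of the control list to 7.43% in the worst. In biological sample 6 it was 3.02% in the best decile and below 1% in each of the other deciles.

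Seen from the silenced neurons, these peaks were listed about as often with c-Fos shRNA as with control shRNA in biological sample 5, and more often in biological sample 6. Of the 1891 sc52 peaks of silenced biological sample 4, the control lists of biological samples 5 and 6 held 84.8% and 55.5%, and the c-Fos shRNA lists 84.6% and 69.8%. Of the 3669 of silenced biological sample 3, the control lists held 70.5% and 33.8% and the c-Fos shRNA lists 71.1% and 40.0%. In biological sample 6 the shorter c-Fos shRNA list thus held more of them than the longer control list. This was so for non-distal peaks only: of the peaks of silenced biological sample 3, 33.7% of the non-distal ones were in the control list and 50.1% in the c-Fos shRNA list, whereas the shares were 39.2% and 29.2% of the distal and 31.8% and 19.5% of the outside ones. The best-scoring peaks of the c-Fos shRNA lists were almost all of this kind. Of the 100 best, 99 in biological sample 5 and 100 in biological sample 6 overlapped an unstimulated sc52 peak, and of the 1000 best, 959 and 978. Over the whole lists the shares were 35.2% of 7808 peaks and 86.4% of 1793.

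The lost peaks, in contrast, were rarely listed in silenced neurons and were often listed for other AP-1 antibodies after KCl. Of lost peaks, 1.42% in biological sample 5 and 1.95% in biological sample 6 were among the sc52 peaks of silenced neurons from biological sample 3, against 43.3% and 84.7% of kept peaks. After KCl, sc52 of biological sample 3 was also at more kept than lost peaks. Its shares were 86.3% against 58.3% in biological sample 5 and 95.9% against 55.1% in biological sample 6. A second c-Fos antibody, sc7202, had the same order in silenced neurons. There its list of biological sample 3 held 12.1% of kept and 0.586% of lost peaks of biological sample 5, and 29.6% and 0.464% of those of biological sample 6. Over all places, sc7202 gave the opposite order after KCl. Its KCl list of biological sample 4 held 49.5% of lost and 33.2% of kept peaks of biological sample 5, and 56.7% of lost and 21.96% of kept peaks of biological sample 6. JunB, a Jun-family partner of c-Fos, was listed after KCl at 48.5% of lost and 28.9% of kept peaks of biological sample 5, and at 60.7% and 19.0% of those of biological sample 6.

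FosB, a Fos-family protein that likewise pairs with Jun proteins, was measured in the same biological samples with control shRNA. Its list of biological sample 6 held 51.5% of lost and 18.4% of kept c-Fos peaks of that biological sample, and 38.1% and 22.5% of those of biological sample 5. Its list of biological sample 5 held 61.4% of lost and 60.1% of kept c-Fos peaks of that biological sample, and 59.1% and 44.1% of those of biological sample 6. By place, that list held more of the kept than of the lost peaks of biological sample 5. The shares were 53.3% against 50.7% inside non-distal H3K27ac, 76.5% against 73.6% inside distal H3K27ac and 70.9% against 59.7% outside H3K27ac. For biological sample 6 they were 39.5% against 75.0%, 59.5% against 75.6% and 54.1% against 53.8%. In the uninfected KCl cultures the order was mixed: FosB of biological sample 3 was listed at more kept than lost peaks (55.9% against 23.4% in biological sample 5, and 44.7% against 24.3% in biological sample 6), and FosB of biological sample 4 at 15.9% of kept and 12.6% of lost peaks in biological sample 5 but at 14.9% and 17.8% in biological sample 6. For JunB, for the FosB list of biological sample 6 and for the KCl sc7202 list of biological sample 4, the order over all peaks did not hold in every place. Outside H3K27ac, that FosB list held 58.9% of kept and 39.9% of lost peaks in biological sample 5, and 55.3% and 49.3% in biological sample 6. Inside distal H3K27ac the list held 51.9% and 47.7% in biological sample 5 but 37.9% and 62.2% in biological sample 6. Inside non-distal H3K27ac it held fewer of the kept peaks in both, 6.36% against 9.06% and 7.13% against 38.9%. Outside H3K27ac, JunB was at 66.5% of kept and 48.8% of lost peaks in biological sample 5, and at 58.2% and 56.8% in biological sample 6. The KCl sc7202 list of biological sample 4 held 60.1% of kept and 49.5% of lost outside peaks in biological sample 5, and 53.5% and 52.0% in biological sample 6. Inside distal H3K27ac it held 67.8% of kept and 63.7% of lost peaks in biological sample 5 but 41.4% and 74.1% in biological sample 6. Inside non-distal H3K27ac it held fewer of the kept peaks in both, 17.8% against 24.1% and 11.9% against 59.9%. The KCl sc7202 list of biological sample 3 held fewer of the kept than of the lost peaks in every place. Outside H3K27ac its shares were 71.5% of kept and 73.1% of lost peaks in biological sample 5, and 55.3% and 65.2% in biological sample 6.

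**Figure D3:**
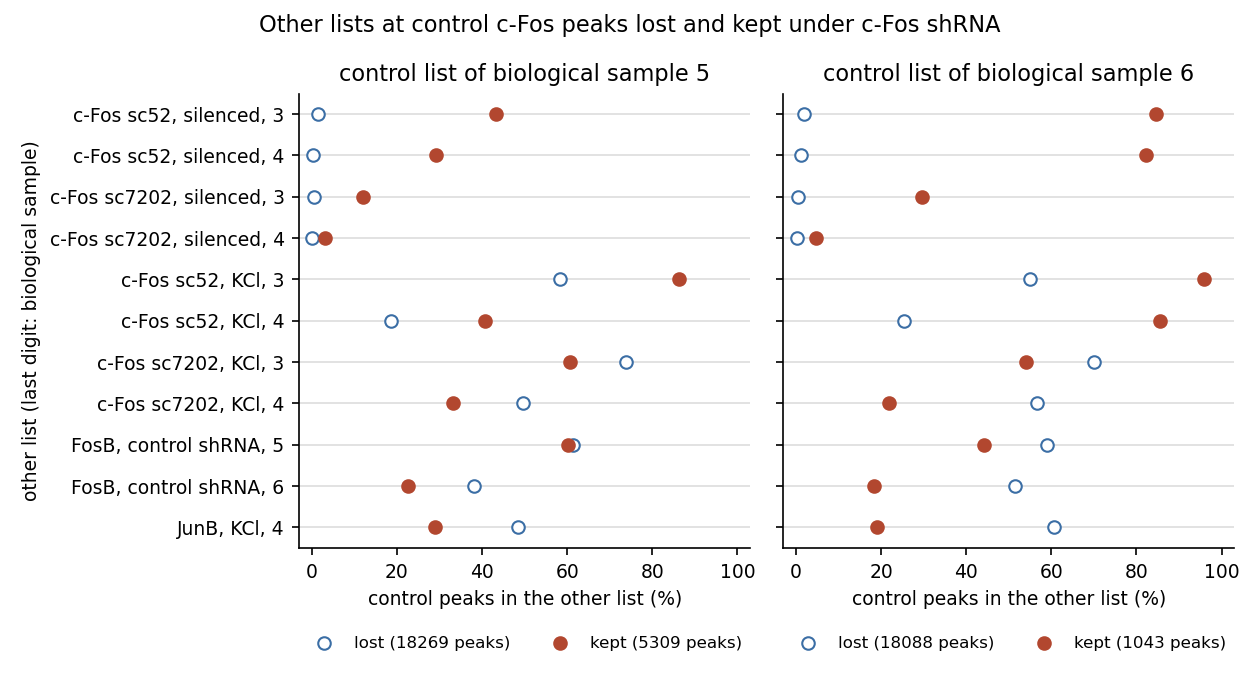
Share of control c-Fos peaks (horizontal axis, %) that overlap a peak of another list, for peaks lost (open) and kept (filled) under c-Fos shRNA in biological samples 5 and 6; each line is 1 library, named by its antibody, condition and biological sample. Peaks of all H3K27ac places are pooled. Kept peaks lie to the right for c-Fos sc52 in silenced neurons and lost peaks to the right for sc7202 and JunB after KCl. FosB of biological sample 5 has nearly the same pooled share at both in the left panel (60.1% and 61.4%).

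Sites present in both controls were followed through both biological samples. Of the 12325 control peaks of biological sample 5 that overlapped a control peak of biological sample 6, 9952 (80.7%) were lost in both. A further 985 (7.99%) were kept in both, 1353 (10.98%) in biological sample 5 alone and 35 (0.284%) in biological sample 6 alone. Of the sites kept in biological sample 6, 96.6% were also kept in biological sample 5, so that the peaks of the shorter c-Fos shRNA list were nearly a subset of those of the longer one. Non-distal sites, 1417 in number, were kept in both in 750 cases and lost in both in 318. Of 2829 distal sites 99 were kept in both and 2181 lost in both, and of 8079 outside sites 136 and 7453.

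**Figure D4:**
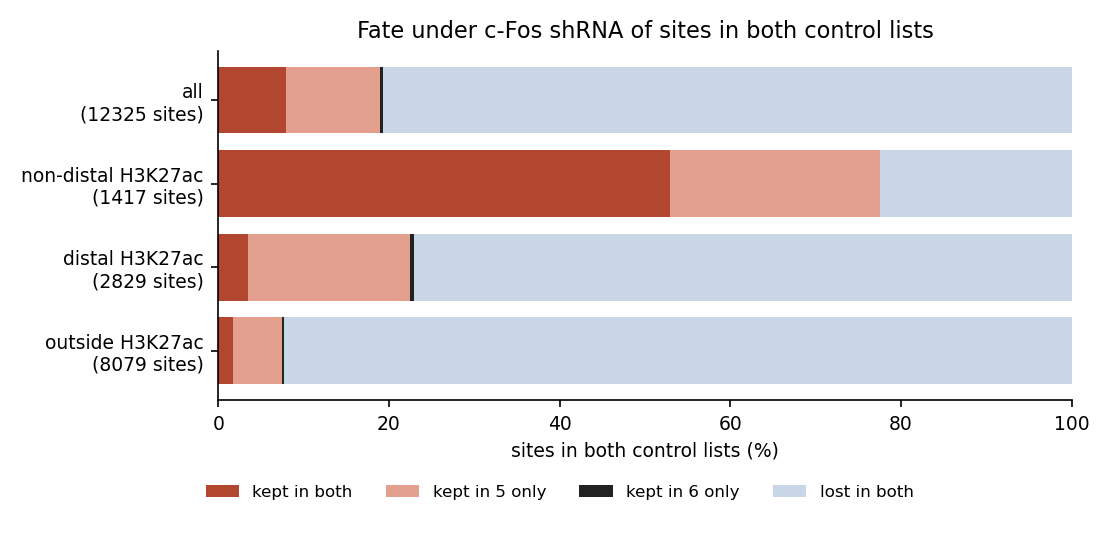
Fate under c-Fos shRNA of the 12325 sites listed in both control libraries (horizontal axis, % of sites), in all and by H3K27ac place. The share kept in both biological samples is widest at non-distal H3K27ac (750 of 1417 sites), while 7453 of the 8079 sites outside H3K27ac were lost in both.

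The sites kept in both and those kept in biological sample 5 alone had different profiles in the other lists. Of the 985 kept in both, 92.0% were in at least 1 unstimulated sc52 list, 16.04% in the KCl list of JunB, 20.3% in the KCl sc7202 list of biological sample 4 and 15.6% in the FosB list of biological sample 6. Of the 1353 kept in biological sample 5 alone, 19.96% were in an unstimulated sc52 list, but 79.0% in that of JunB, 79.4% in that of sc7202 and 69.5% in that of FosB. The 9952 sites lost in both were close to the latter for JunB (71.5%), sc7202 (71.4%) and FosB (61.1%), and 0.914% of them were in an unstimulated sc52 list. All these shares pool the places. Non-distal sites were 76.1% of those kept in both, 25.7% of those kept in biological sample 5 alone and 3.20% of those lost in both. Outside H3K27ac, the KCl list of JunB held 50.7%, 88.3% and 68.5% in the same order, and the FosB list of biological sample 6 held 48.5%, 81.0% and 59.8%. By score, sites kept in both had a median place in the top 4.64% of the control list of biological sample 5, those kept in it alone in the top 16.5% and those lost in both in the top 39.9%.

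Only 79 sites were kept in both and absent from both unstimulated sc52 lists. These had a KCl JunB peak in 58.2% of cases (46 of 79; Wilson 95% interval 47.2 to 68.5%) and a KCl sc7202 peak of biological sample 4 in 59.5%. Among sites absent from both unstimulated sc52 lists and kept in biological sample 5 alone, these shares were higher, at 86.3% and 84.9%. Among absent sites lost in both they were 71.3% and 71.4%. Outside H3K27ac, 41.9% of the 136 sites kept in both had a JunB peak in silenced neurons, as did 21.3% of the 469 kept in biological sample 5 alone, 38.1% of the 21 kept in biological sample 6 alone and 2.59% of the 7453 lost in both. Of the 750 non-distal sites kept in both, 0.133% had one.

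Distal acetylation before stimulation went with the kept share. Control peaks in distal H3K27ac peaks that were present in silenced neurons as well were kept in 24.8% of cases in biological sample 5 and 4.29% in biological sample 6. Where distal H3K27ac was listed only after KCl, 12.97% and 1.09% were kept, although these c-Fos peaks ranked slightly higher in the control lists (median fractional rank 0.362 and 0.354, against 0.431 and 0.433, where 0 is best). Without H3K27ac in either condition the shares were 5.71% and 1.17%. The distal H3K27ac peaks that held kept c-Fos peaks were themselves better ranked, with a median fractional rank of 0.196 against 0.396 at lost peaks in biological sample 5 and of 0.193 against 0.418 in biological sample 6 on the same scale. At non-distal H3K27ac the 2 biological samples went opposite ways, with 0.313 at kept and 0.363 at lost peaks in biological sample 5 and 0.421 and 0.276 in biological sample 6.

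At the authors' enhancer classes, c-Fos coverage was low with c-Fos shRNA whatever the class. The classes divide distal sites with CBP and H3K4me1 by what H3K27ac does after KCl, and a site was covered when its position lay inside a c-Fos peak. Of the 1468 increasing enhancers, 790 (53.8%) were covered with control and 164 (11.2%) with c-Fos shRNA in biological sample 5, and 777 (52.9%) and 4 (0.272%) in biological sample 6. The mean difference was -47.6 percentage points (exact permutation p = 0.33). With lists of the same length it was -15.4 percentage points (exact permutation p = 0.67).

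Of the 800 constant enhancers, 205 and 54 were covered in biological sample 5 and 176 and 2 in biological sample 6. Of the 738 decreasing enhancers, 145 and 39 were covered in biological sample 5, and 116 and 0 in biological sample 6, where a count of 0 allows a share of up to 0.407% by the limit of 3 counts and of up to 0.518% by the Wilson interval. Of the 1886 sites with no H3K27ac, 698 were covered with control shRNA in each biological sample, and 84 and 12 with c-Fos shRNA. The remaining 6938 sites, which the authors put in none of the 4 classes, had 2368 and 435 covered in biological sample 5 and 2168 and 31 in biological sample 6. With c-Fos shRNA the increasing class still had the highest share in biological sample 5, at 11.2% against 6.75% of constant, 5.28% of decreasing and 4.45% of sites with no H3K27ac. The 4 classes lay between 0% and 0.636% in biological sample 6.

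The enhancers that were covered with control shRNA kept their c-Fos peak at like rates in the 3 classes with H3K27ac. In biological sample 5 the kept share was 18.6% for increasing, 19.5% for constant and 17.9% for decreasing enhancers. The widest of their Wilson intervals ran from 12.5 to 24.98%. These intervals cover counting error over sites only, not the spread between biological samples. The kept share was 9.60% for sites with no H3K27ac. In biological sample 6 it was 0.515%, 1.14% and 0% for the 3 classes with H3K27ac and 1.15% for sites without. Of 654 increasing enhancers covered in both controls, 517 (79.1%) were uncovered in both under c-Fos shRNA and 4 were covered in both. For sites with no H3K27ac, 482 of 535 (90.1%) were uncovered in both.

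**Figure D5:**
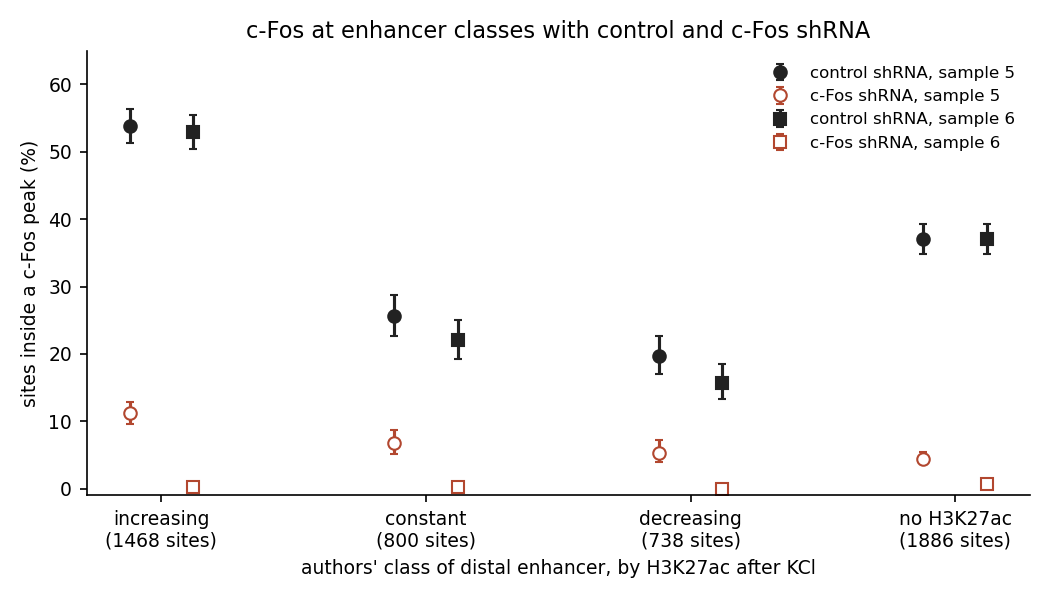
Share of sites of each enhancer class inside a c-Fos peak (vertical axis, %), with control shRNA (filled) and c-Fos shRNA (open), circles for biological sample 5 and squares for biological sample 6; bars are Wilson 95% intervals, which cover counting error only. Increasing enhancers have the highest control shares (53.8% and 52.9%), and with c-Fos shRNA every class lies at or below 11.2%.

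Single sites show the 2 extremes. Coordinates are on build mm9, as in the control list of biological sample 5. The best-ranked site lost in both biological samples was chr4:136125481-136126699, inside an H3K27ac peak that is distal and was listed only after KCl. It stood in the top 0.416% of the control list of biological sample 5 and the top 0.648% of that of biological sample 6, and neither c-Fos shRNA list held a peak there. The next 4 were chr10:17796630-17797635, chr2:71481740-71482647 and chr7:146904383-146905458, all outside H3K27ac, and chr12:51068871-51069776, inside distal H3K27ac. Each of these 5 sites had a c-Fos peak with both antibodies in both uninfected KCl cultures, a FosB peak in all 4 KCl libraries and a JunB peak after KCl, and none had a peak in the 4 unstimulated c-Fos lists.

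Among the 5 best-ranked sites kept in both outside non-distal H3K27ac, 2 had the same profile. These were chr13:58755101-58756892 and chr17:66310473-66311880, both outside H3K27ac, without an unstimulated c-Fos peak and with c-Fos of both antibodies, FosB and JunB after KCl. The former had a score of 3100, which 14 peaks share, in the control list of biological sample 5 and, in the c-Fos shRNA lists, in the top 7.15% in biological sample 5 and the top 38.98% in biological sample 6. The latter stood in the top 2.10% and 21.03% of the c-Fos shRNA lists. Ranks in lists of different length do not measure a change. The other 3 sites were chr17:86549799-86550928, chr7:26052107-26053905 and chr8:72735825-72737198. They had an sc52 peak in both unstimulated lists and no JunB peak. In the c-Fos shRNA list of biological sample 5 all 3 had a score of 3100, which 37 peaks of that list share, so that their order there has no meaning.

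The 5 best-ranked sites kept in both inside non-distal H3K27ac all resembled these 3. They were chr15:76180767-76182361, chr12:72115598-72117510, chr15:102235513-102237094, chr1:133423477-133424988 and chr7:75893599-75894938. All 5 were acetylated before stimulation as well, had an sc52 peak in both unstimulated lists and had no JunB peak in either condition. In the c-Fos shRNA list of biological sample 5 all 5 were again among the 37 peaks tied at a score of 3100, and in that of biological sample 6 they stood between the top 0.112% and the top 1.51%. Ties at 3100 in the control lists were ordered by their order in the list, which bears on which kept sites come first.

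Among increasing enhancers the best-ranked that were uncovered in both were chr6:50635245, chr1:40932065 and chr7:71807675. The best-ranked of the 4 that were covered in both were chr3:50999465, chr12:32264130 and chr12:16843185. In the c-Fos shRNA lists these last 3 stood between the top 13.1% and 38.9% in biological sample 5 and between 62.1% and 82.2% in biological sample 6. All 6 enhancers lay in an H3K27ac peak listed only after KCl, and all 6 had c-Fos peaks in the 4 uninfected KCl libraries, FosB in 4 of 4 and JunB. None had a c-Fos peak in silenced neurons, so that these other lists did not tell the covered from the uncovered.

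Peaks listed with c-Fos shRNA but not with the control of the same biological sample were of different kinds in the 2 biological samples. Biological sample 6 had 756, of which 82.9% lay in non-distal H3K27ac peaks, 90.5% were in the control list of biological sample 5 and 82.3% in an unstimulated sc52 list. Biological sample 5 had 2527, of which 61.9% were non-distal, 4.00% were in the control list of biological sample 6 and 11.9% in an unstimulated sc52 list. Their median score was 65.5, near the lowest score of 50 that the lists hold. Of these 2527 peaks, 44.8% were in some other KCl c-Fos list, against 94.3% of the 756.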

How the data were processed

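Peak lists of c-Fos, FosB, JunB and H3K27ac ChIP-seq were used as deposited. Reads were aligned with BWA to mm9, per the submitters' processing notes. MACS stands in the peak names, per the deposited files. Caller version and input library: not given in the sources used here. Peaks of AP-1 proteins were called per library by the authors, and H3K27ac peaks on pooled biological samples 1 and 2, per the labels. The deposited score grows with the negative log10 p-value of the peak. The lowest score in the lists is 50, which stands for 1e-05.

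Lists were compared by overlap of at least 1 bp with Python 3.11.15, numpy 2.4.6, scipy 1.17.1 and pandas 2.3.3. Peak numbers and enhancer coverage were compared with an exact two-sided test that permutes the library labels. Biological samples pair the libraries, per the labels, and sample 5 had more peaks than 6 in both groups. A test with the replicate block (exact sign-flip test, 2 pairs) gave p = 0.5 throughout. The overlap rule was tested on simulated peaks. Alternatives were a score of at least 100, autosomes only, other overlap rules, merging within 500 bp, lists of equal length and leaving out a biological sample. Members and lists were chosen with earlier results of these data known. Named sites are the best by mean control rank among sites in both controls, 5 per kind and 3 enhancers per kind. No sequence or gene was assigned, since no mm9 genome was used here. The FosB shRNA lists were not used.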

Additional observations from a re-analysis of the deposited data

How the results depend on the processing

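No alternative tried turned the direction of a difference in peak number or coverage, and no test could pass 0.05 under any. Kept shares had no direction to turn. Lists of equal length were not applied to the peak numbers. Among the 1000 best peaks of each list, 543 control and 862 c-Fos shRNA peaks were non-distal in biological sample 5. In biological sample 6 they were 258 and 844. The order of these non-distal numbers was thus opposite to that of the whole lists. Of the kept shares, 5 moved by more than the SD between biological samples. Leaving out 1 of 2 biological samples always shifts the mean by less than this SD, so it could not count as a move. Inside distal H3K27ac the SD (12.8) was larger than the mean (12.2%), so no fall could count there. With lists of the same length, the mean kept share was 31.97% over all control peaks, 88.1% inside non-distal H3K27ac and 11.2% outside H3K27ac. Inside distal H3K27ac it was 20.4%, a shift smaller than the SD there. The non-distal share was 46.2% when peak centres had to lie within 200 bp. It was 26.8% without control peaks listed in an unstimulated sc52 library, an alternative chosen after seeing the data. The difference in coverage of increasing enhancers was -15.4 percentage points with lists of the same length and -33.4 with a score of at least 100, and that in non-distal log2 number was -0.05 with a score of at least 100. The cause was not tested. Leaving out 1 biological sample gave differences in log2 peak number of -3.42 to -1.59 for all peaks, -0.14 to -0.10 inside non-distal, -4.49 to -1.78 inside distal and -5.81 to -3.27 outside H3K27ac. Coverage of increasing enhancers then differed by -52.7 to -42.6 percentage points. The kept share was 5.45% to 22.5% over all peaks, 49.6% to 64.9% non-distal, 3.11% to 21.2% distal and 1.23% to 5.99% outside. With the replicate block the difference in log2 number was again -2.50 (exact sign-flip p = 0.5), and the block changed no call. Peak lists hold no reads, so depth could not be matched, and n was 2.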
